A study of Mus musculus with 9 samples.

Results

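The comparison set peritoneal macrophages of mice carrying either of 2 substitutions of STAT6 residue Ser807 against those of wild-type mice. Each mutant genotype was homozygous and gave 3 poly(A) RNA libraries, as did wild type: WT for wild type, SA for Stat6S807A/S807A (serine to alanine) and SE for Stat6S807E/S807E (serine to glutamate). The members were thus 6 mutant and 3 WT libraries, 9 of the 9 in the series. Thioglycollate, an irritant, had drawn the macrophages into the peritoneal cavity, and RNA was taken after short adherence in DMEM with 10% fetal bovine serum. The labels name no cytokine or other added agent and give no strain, age or sex. The labels do not say that libraries came from separate mice, and p-values therefore describe only how far these samples spread, which may be technical.

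STAT6 is the transcription factor that carries interleukin-4 (IL-4) and interleukin-13 signals. Receptor-bound JAK kinases phosphorylate it on a tyrosine, after which it pairs through its SH2 domain, enters the nucleus and binds palindromic DNA that starts with TTC and ends with GAA. In macrophages it drives alternative activation, with lectins such as CD301b and the mannose receptor and enzymes such as arginase-1 as known outputs. Ser807 lies in the transactivation domain near the carboxyl end. Alanine cannot carry a phosphate, and glutamate, negatively charged, is commonly used to stand in for a phosphorylated serine. The series title concerns phosphorylated Ser807 and macrophage senescence. The average of SA and SE against WT asks which genes moved in mice that had lost the serine, whichever residue replaced it.

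Stat6 itself (chr10:127642986-127660957, plus strand, mm10) was measured first. Levels here are CPM, read counts relative to the library total, TMM-scaled, and errors of group means are SDs with n = 3. Stat6 was at 198, 201 and 187 CPM in WT, 195, 200 and 200 in SA, with 291, 284 and 312 in SE. The SA libraries lay within the WT range, and the 3 SE libraries lay above all others. The average of the mutants was 1.24-fold above WT (edgeR adjusted p = 0.00144), although SA alone was 1.01-fold of WT (adjusted p = 0.946) and SE alone 1.51-fold (adjusted p = 6.27e-06). Stat6 was therefore called in the average without being shared by the mutants, and with the 6 mutant libraries treated as 1 group its edgeR adjusted p was 0.571. A gene count cannot read the substituted codon, so these values do not check the genotype labels. Cdkn1a, the gene of the CDK inhibitor p21, had means of 223 ± 15.5 in WT, 204 ± 5.87 in SA and 219 ± 6.58 CPM in SE (adjusted p = 0.597 for the average, 2-sided).

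A gene can enter the average contrast in several ways, and the genes were sorted accordingly. Of 13501 genes tested, 420 (3.11%) were called at an edgeR adjusted p under 0.05: 187 higher (1.39%) and 233 lower (1.73%) in the mutants. All 6 mutant libraries lay above or below all 3 WT libraries for 760 tested genes (5.63%). A gene was termed common when it was called, all 6 mutant libraries lay on the same side of all 3 WT libraries, and SE against SA was not called. Lack of overlap with WT is thus part of how common genes were picked, and adds no support where stated below. There were 188 common genes (1.39% of those tested), of which 69 were higher (0.511%) and 119 lower (0.881%). In 213 of the 420 the mutants also differed from each other, a contrast that called 10.2% of tested genes. For 192 of those 213 both mutant means lay on the same side of the WT mean; the distance from WT was larger in SA for 120 and in SE for 93. The other 19 genes showed overlapping libraries and no call between the mutants. A missed call between SE and SA does not show that they were alike, so each mutant's values are given for the genes the text turns on.

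Common changes were small. Their median fold was 1.31 with a median level of 21.6 CPM, and 180 of the 188 were protein coding. Only 18 common genes moved 2-fold or more, and 2 of those had a mean of at least 5 CPM: Adra1a and Mgl2. The counts depended on single libraries. Without WT3 189 genes were called, 68 of the 188 common genes among them; without SA1 the total was 282. With the mutants as 1 group of 6, where a difference between SA and SE counts as spread, 70 genes were called, all among the 420, and 56 of them were common. Of the 188 common genes, 62 stayed called whichever single library was left out. Principal components 1 to 3 held 27.9%, 18.8% and 14.6% of the variance, and WT2 and SE3 stood at the same end of component 3. Without both, 768 genes were called.

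**Figure D1:**
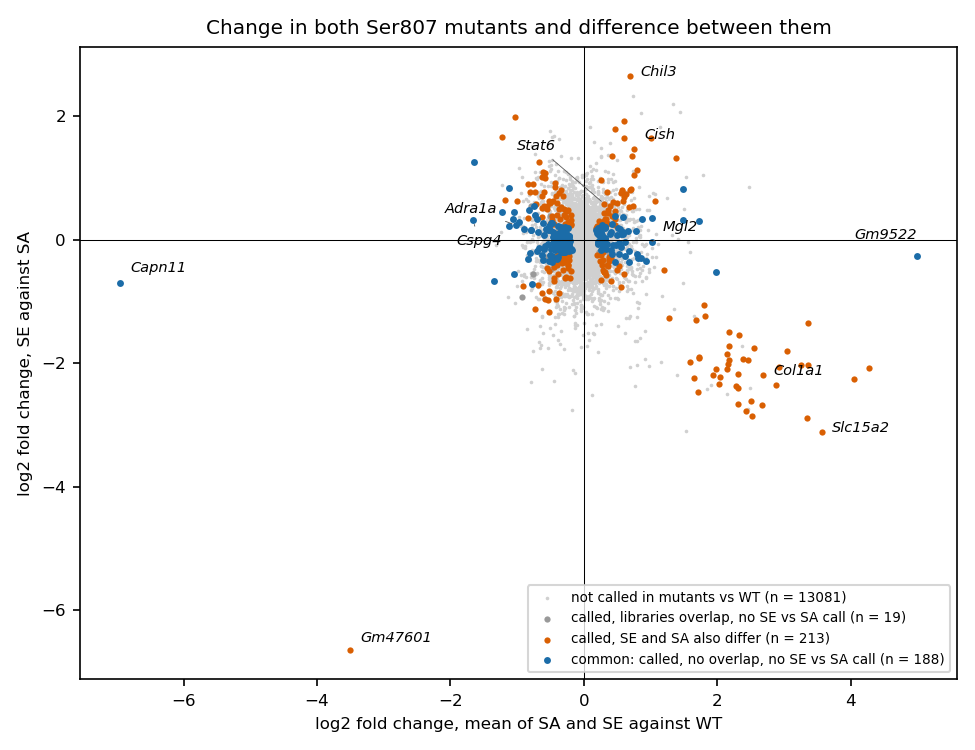
Log2 fold change of the mean of SA and SE against WT (x) and of SE against SA (y) for 13501 genes, 1 point each; blue points are the 188 common genes, orange points the 213 called genes whose mutants also differed, dark grey points the 19 with overlapping libraries, and pale points are not called. Common genes lie near the horizontal axis, Capn11 and Gm9522 stand at its ends, and Col1a1, Slc15a2 and Chil3 lie far from it.

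Promoter letters are shown for Hmga2 and Mgl2. At a mean of at least 5 CPM, these were the common lower and higher genes of largest change with an entry. Eps8l1 is shown because it was the only gene of the 3 lower promoters examined by that rule with a TTCNNNNGAA match. The promoter of Asns, an amino acid enzyme described further on, is shown too, so that sequence and level can be read together. Each is the 250 bases before the RefSeq start site, 5′ to 3′ on the gene's strand, GRCm38.p6 (the same chromosome coordinates as mm10). Capitals mark a match to TTCNNNNGAA, the spacing STAT6 is known to prefer, in Eps8l1, and to TGATGNAA, the core of the element that ATF4 is known to bind, in Asns. Mgl2 is at chr11:70130107-70130356 (plus strand), Hmga2 at chr10:120476470-120476719 (minus), Eps8l1 at chr7:4460447-4460696 (plus) and Asns at chr6:7693210-7693459 (minus); Asns was chosen after its values were seen.
Mgl2: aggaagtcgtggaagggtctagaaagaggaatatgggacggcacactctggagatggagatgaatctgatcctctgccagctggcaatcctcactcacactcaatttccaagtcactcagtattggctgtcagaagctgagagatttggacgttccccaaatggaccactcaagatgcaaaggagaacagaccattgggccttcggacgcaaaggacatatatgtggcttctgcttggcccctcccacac
Hmga2: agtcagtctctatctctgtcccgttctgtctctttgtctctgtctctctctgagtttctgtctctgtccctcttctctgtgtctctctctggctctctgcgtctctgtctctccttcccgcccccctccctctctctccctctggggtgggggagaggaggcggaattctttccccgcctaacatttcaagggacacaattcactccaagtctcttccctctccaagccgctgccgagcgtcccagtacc
Eps8l1: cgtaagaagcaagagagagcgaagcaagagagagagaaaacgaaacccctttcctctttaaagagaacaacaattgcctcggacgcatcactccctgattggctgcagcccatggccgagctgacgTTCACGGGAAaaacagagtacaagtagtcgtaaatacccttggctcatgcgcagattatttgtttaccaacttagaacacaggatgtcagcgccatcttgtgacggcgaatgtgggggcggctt
Asns: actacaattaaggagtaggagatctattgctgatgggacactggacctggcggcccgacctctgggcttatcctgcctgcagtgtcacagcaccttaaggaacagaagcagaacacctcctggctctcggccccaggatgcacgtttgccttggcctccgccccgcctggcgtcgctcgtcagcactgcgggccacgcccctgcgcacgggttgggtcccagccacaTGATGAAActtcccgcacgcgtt
The match begins 124 bases before the start site in Eps8l1 and 23 bases before it in Asns. Both strands were searched. TTCNNNNGAA occurred in 4 of 55 common higher genes with a promoter entry (7.273%) and in 5 of 92 common lower genes (5.435%), against 4.671% of tested genes and 5.555% of all 20595 genes with an entry. TTCNNNGAA, the spacing of other STAT proteins, occurred in 4 of the 55 and 4 of the 92 (4.348%), against 5.844% of tested genes. TGATGNAA occurred in 2 of the 55 (3.636%, Asns and Nupr1) and 0 of the 92, against 2.097% of tested genes. CACGTG, the E-box core that MYC is known to bind, occurred in 7 of the 55 (12.73%) and 4 of the 92, against 8.544% of tested genes. A match is a description of letters and not a binding site, and the Mgl2 and Hmga2 windows held none of the 4 motifs.

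The sharpest loss was Capn11, which encodes a calpain protease best known from testis (chr17:45630204-45659325, minus strand). It had 81, 66 and 89 counts across WT1 to WT3, 0, 2 and 0 over the SA libraries, with 0, 0 and 1 in SE. Its transcripts were at low level in every WT library and near absent from all 6 mutant libraries. Scaled for depth, the ratio of WT to mutants was 147, with an exact 95% interval of 49.6 to 716 that covers counting error only (edgeR adjusted p = 2.91e-08). In the other direction Gm9522, a predicted gene (chr15:39180511-39181436) chosen after its values were seen, had 1, 0 and 0 counts across the WT libraries, 20, 15 and 12 over the SA libraries, with 18, 5 and 13 in SE. The ratio of mutants to WT was 44.5, with an exact 95% interval of 7.77 to 1780. The point at the lower left of the plot of both contrasts is Gm47601, also chosen after its values were seen: it had CPM of 0.999, 0.352 and 0.652 in WT and 0.617, 0.713 and 0.514 in SA, and was at 0 in all 3 SE libraries, so its call in the average came from SE.

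Among the 12 common lower genes of largest change at 5 CPM or more, roles were mixed, with receptors, adhesion molecules and enzymes among them. Clec4d, a C-type lectin receptor of myeloid cells that senses mycobacterial and fungal glycolipids, was at 156, 171 and 180 CPM in WT, 117, 119 and 114 in SA, with 109, 109 and 107 in SE. All 6 mutant libraries lay well below WT and close together. The fall was 1.5-fold (edgeR adjusted p = 4.19e-06; SE minus SA -0.11 ± 0.06 SE on the log2 scale, adjusted p = 0.328). Cadm1, an immunoglobulin-family adhesion molecule, was at 298, 330 and 309 CPM in WT, 208, 190 and 213 in SA, with 218, 226 and 234 in SE. It fell 1.46-fold (adjusted p = 1.06e-05), and, as for every common lower gene, no mutant library reached the lowest WT library.

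Adra1a, an alpha-1 adrenergic receptor, fell the most of the 12, with 11.5, 9.22 and 11.5 CPM in WT, 4.05, 5.25 and 5.5 in SA, with 5.98, 5.7 and 5.65 in SE (2.03-fold, edgeR adjusted p = 4.09e-05). Hmga2, an architectural chromatin protein of growing cells, had 10.1, 8.16 and 8.19 CPM in WT, 4.8, 4.23 and 4.37 in SA, with 5.93, 4.89 and 4.29 in SE (1.86-fold, adjusted p = 0.000298). By the definition of common, neither gene had a mutant library within the WT range. Eps8l1, a relative of the actin regulator EPS8 whose promoter is printed, was at 13.9, 17 and 13.9 CPM in WT, 8.07, 6.37 and 8.79 in SA, with 9.76, 10.1 and 10.9 in SE (1.67-fold, adjusted p = 0.000407). SE lay between SA and WT, and the mutants missed the call between them (adjusted p = 0.0587).

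Fabp7, a fatty acid binding protein, was at 34.6, 27.6 and 31.9 CPM in WT, 22.3, 18.9 and 20.7 in SA, with 20.9, 17.7 and 17.4 in SE, a fall of 1.6-fold (edgeR adjusted p = 0.000134). Fcna, the secreted lectin ficolin A of the complement lectin pathway, was at 20.2, 23.2 and 22.9 CPM in WT, 14.9, 16.6 and 15.4 in SA, with 15.6, 14.1 and 14.7 in SE (1.45-fold, adjusted p = 0.000406). In both genes the mutants were near each other and clear of WT. The remaining genes were Cdk5rap1, which modifies mitochondrial transfer RNAs (1.64-fold), Nat8l, which makes N-acetylaspartate (1.52-fold), the scramblase gene Plscr4 (1.52-fold), Tmem154 (1.48-fold) and Rtl8b, derived from a retrotransposon (1.44-fold, adjusted p = 0.0303). In SA and SE in turn the falls were 1.83-fold and 1.46-fold for Cdk5rap1, 1.67-fold and 1.39-fold for Nat8l, 1.44-fold and 1.6-fold for Plscr4, 1.57-fold and 1.39-fold for Tmem154, and 1.56-fold and 1.33-fold for Rtl8b, which was not called in SE alone (edgeR adjusted p = 0.136). Each fell in the average, with no library overlap by definition. The call of Rtl8b ended without WT2, WT3, SA2, SA3 or SE1 (highest edgeR adjusted p = 0.137), whereas the other 11 genes kept theirs in each alternative that gave a value.

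**Figure D2:**
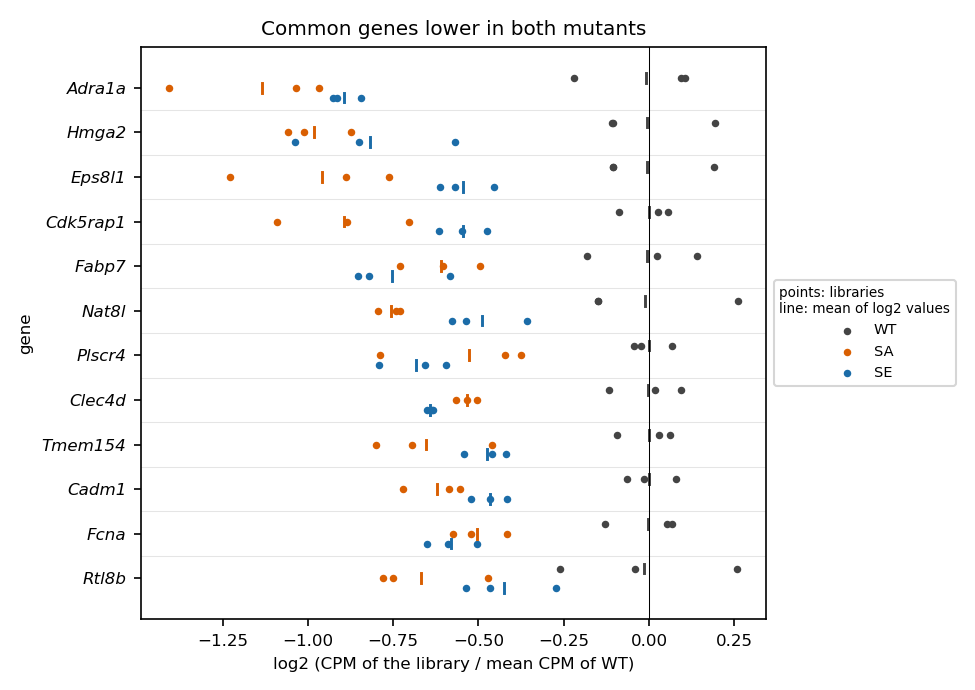
Log2 ratio of each library's CPM to the WT mean for the 12 common lower genes of largest change, with WT in dark grey, SA in orange and SE in blue; points are libraries (n = 3 per genotype) and short lines the mean of the log2 values. Every mutant point lies left of every WT point of its gene, as the definition of common requires, and Adra1a lies farthest left.

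Cspg4, the proteoglycan NG2, was named from the integrin and adhesion list and fell further than these at a mean under 5 CPM. It was at 9.11, 8.63 and 9.54 CPM in WT, 3.17, 2.34 and 2.16 in SA, with 2.6, 2.56 and 4.45 in SE. The 3.16-fold fall (edgeR adjusted p = 6.71e-06) was present in both mutants, 3.52-fold in SA and 2.83-fold in SE, with no call between them (adjusted p = 0.424). Of 24 tested members of that list 5 were lower and 1 was higher (25% called, against 3.11% of all tested genes). Of the lower, 3 were common. Besides Cspg4 these were Itgal, the alpha chain of LFA-1 (1.26-fold), and Vcam1, a ligand of alpha-4 integrins (1.62-fold). Vcam1 lost its call without WT3 (adjusted p = 0.173) and without SA1 and was not called in SA alone (1.52-fold, adjusted p = 0.0831), and Itgal lost it with the mutants as 1 group (adjusted p = 0.0572). Itgb7, an integrin beta chain, was lower by 1.55-fold and Itga6 by 1.37-fold, but the mutants differed in both: Itgb7 was lower in SA, and Itga6 was lower in SE and not called with the mutants as 1 group (adjusted p = 0.216). The higher member was Itgb3, the beta chain of the vitronectin receptor (1.17-fold, adjusted p = 0.0421); its call ended when any library other than SE2 was left out (highest adjusted p = 0.156). Itgb3 was not called in SE alone (1.15-fold, edgeR adjusted p = 0.0901). The list's median log2 change was -0.04, against -0.0016 for all tested genes.

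The common higher genes were led by Mgl2, which encodes the galactose lectin CD301b, a marker of alternatively activated macrophages and a known IL-4 target (chr11:70130329-70137550, plus strand). It was at 13, 13.6 and 13.4 CPM in WT, 28.1, 27.4 and 26.5 in SA, with 29.1, 27.4 and 23.8 in SE. The lowest mutant library was well above the highest WT library, and SA and SE overlapped. Mgl2 rose 2.05-fold in SA and 2.01-fold in SE (average 2.03-fold, log2 1.02 ± 0.08 SE, edgeR adjusted p = 7.57e-07). The difference of SE minus SA was -0.03 ± 0.08 SE on the log2 scale (adjusted p = 0.877). The call held in every alternative run, the highest adjusted p being 4.4e-05.

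Of the other common higher genes, Lrrc32 encodes GARP, which holds latent TGF-beta on the cell surface. It was at 14.5, 16.7 and 13.6 CPM in WT, 24.6, 21.4 and 21.2 in SA, with 26.1, 23.1 and 24.7 in SE (1.58-fold, edgeR adjusted p = 0.000193). Fkbp5, a co-chaperone of steroid receptors and a known glucocorticoid target, was at 16.1, 17 and 17.6 CPM in WT, 26.8, 20.8 and 25 in SA, with 27.4, 23.6 and 28.3 in SE (1.5-fold, adjusted p = 0.000779). SA and SE overlapped in both, and both mutants lay above WT, as the definition of common requires. Cmklr1, the chemerin receptor, was at 40, 46 and 42.2 CPM in WT, 66.6, 63 and 70.5 in SA, with 50.2, 58.2 and 61.7 in SE (1.44-fold, adjusted p = 0.000363). SA lay above SE in each of its libraries, without a call between the mutants (adjusted p = 0.0784). B3gnt7, a glycosyltransferase that extends keratan sulfate chains, rose 1.59-fold (adjusted p = 0.000872; 1.7-fold in SA and 1.5-fold in SE).

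A less stable group completed the 12. Btbd11 (1.43-fold), the sulfotransferase gene Chst7 (1.41-fold), the adenosine receptor gene Adora2b (1.4-fold) and Uhrf1, which couples DNA methylation to replication (1.39-fold), were called with edgeR adjusted p from 0.0162 to 0.0316. Their calls ended without WT3 (adjusted p of 0.172, 0.219, 0.0864 and 0.174 in that order), without WT1 and without SA1; those of Btbd11 and Uhrf1 also ended without SE1, and that of Chst7 without SA3. Chst7 was not called in SA alone (1.37-fold, edgeR adjusted p = 0.0834), nor Btbd11 in SE (1.41-fold, adjusted p = 0.0508). Uhrf1 was at 14.1, 14 and 13.3 CPM in WT, 20.5, 14.5 and 15.1 in SA, with 25.6, 20.3 and 19.8 in SE. Its SE libraries were clear of WT while SA2 and SA3 sat just above it, and SA alone was not called (adjusted p = 0.348).

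**Figure D3:**
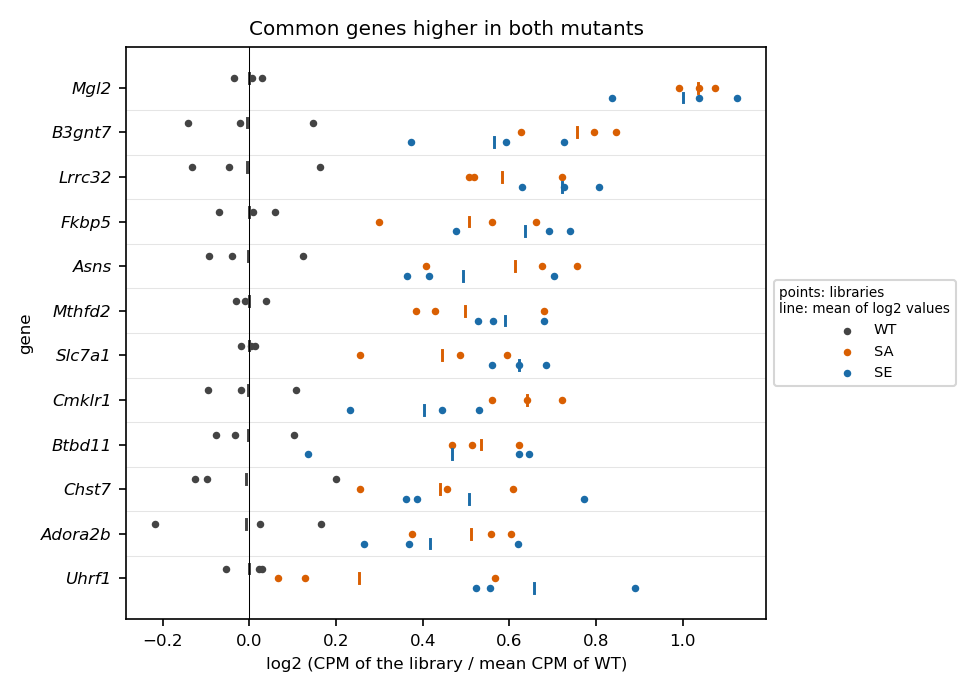
Log2 ratio of each library's CPM to the WT mean for the 12 common higher genes of largest change, drawn as for the lower genes: WT dark grey, SA orange, SE blue, points for libraries (n = 3 per genotype), short lines for means of log2 values. Mgl2 lies about 1 log2 unit above WT in both mutants, and the SA points of Uhrf1 lie nearest to WT.

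Mthfd2, Asns and Slc7a1, also among the 12, handle amino acids or single-carbon units. Mthfd2, a mitochondrial folate enzyme, was at 14.9, 15.4 and 14.7 CPM in WT, 24, 20.1 and 19.5 in SA, with 22.1, 21.6 and 24 in SE (1.46-fold, edgeR adjusted p = 0.000628). Asns, asparagine synthetase, was at 8.87, 7.63 and 7.91 CPM in WT, 13.8, 13 and 10.8 in SA, with 13.2, 10.5 and 10.8 in SE (1.47-fold, adjusted p = 0.00645; 0.0638 without WT3). Slc7a1, a transporter of arginine and lysine, was at 13.7, 14 and 13.9 CPM in WT, 20.9, 16.5 and 19.4 in SA, with 20.4, 22.2 and 21.3 in SE (1.45-fold, adjusted p = 0.000845). In all of them every mutant library was above every WT library, as the definition of common requires.

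The list of serine synthesis, amino acid and integrated stress response genes holds targets that the factor ATF4 is known to raise when amino acids are short. Of its 23 tested members 7 were higher and 0 lower by edgeR (30.4% called, against 3.11% of all tested genes), and 16 had a positive change. Of the 7, 5 were common: Mthfd2, Asns, Aldh18a1, Slc7a5 and Nupr1. The median log2 change was 0.14 in the average, 0.02 in SA and 0.27 in SE. Phgdh, the first enzyme of serine synthesis, was at 6.47, 7.4 and 5.68 CPM in WT, 8.24, 9.22 and 9.4 in SA, with 12.7, 12.1 and 14.5 in SE. It rose in both mutants but further in SE (SE minus SA 0.55 ± 0.12 SE on the log2 scale, adjusted p = 0.00487), and with the mutants as 1 group its adjusted p was 0.082. Aldh18a1, which starts proline synthesis, rose 1.31-fold, and its call ended without WT3 (adjusted p = 0.0648) or WT1. The amino acid exchanger gene Slc7a5 (1.42-fold), the stress regulator gene Nupr1 (1.37-fold) and Psat1, the next enzyme of serine synthesis (1.3-fold), had adjusted p from 0.0287 to 0.0461; each ended without WT3 (0.187, 0.239 and 0.307) and without SA2, SA3, SE1 and further libraries. Atf4 itself and Ddit3 were not called. Slc1a5, a glutamine transporter outside that list and chosen after its values were seen, was at 58.4, 59.8 and 56.3 CPM in WT, 76.1, 70 and 74.6 in SA, with 84, 75.6 and 81.1 in SE (1.32-fold, adjusted p = 0.000407).

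**Figure D4:**
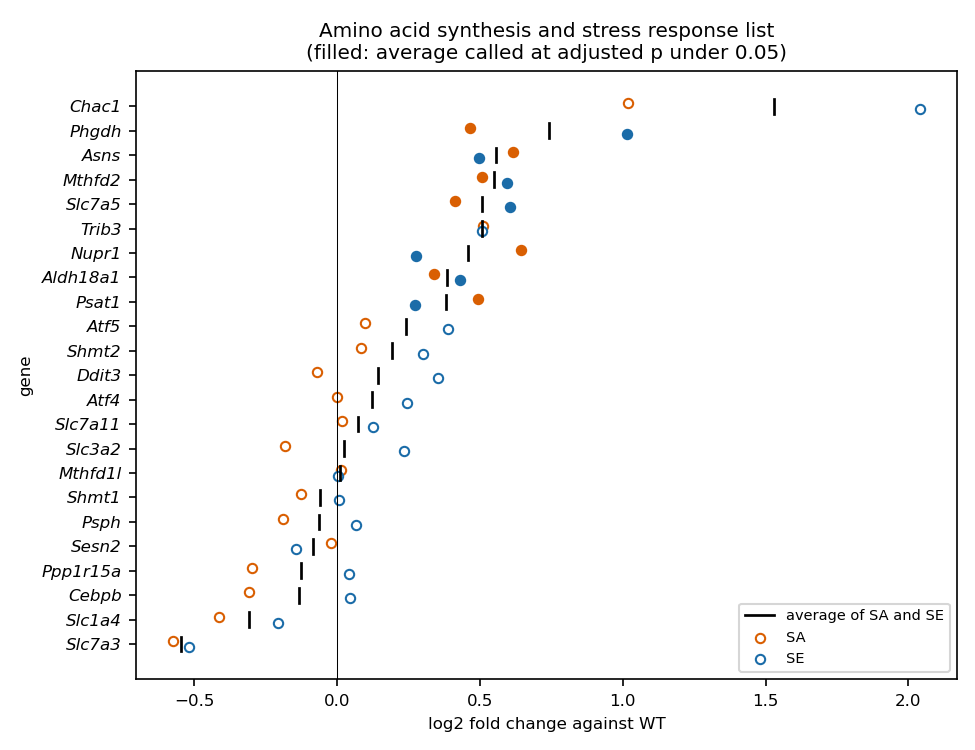
Log2 fold change against WT of the 23 tested members of the amino acid and stress response list, for SA (orange), SE (blue) and their average (black lines); filled symbols are genes whose average was called. The 7 filled genes lie right of 0 in both mutants, and Chac1, at the top, was not called.

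Of 26 tested IL-4 alternative activation genes 14 were higher and 1 lower, with a median log2 change of 0.24 (0.10 in SA, 0.31 in SE). The called share was 57.7%, against 3.11% of all tested genes. Only 6 of the 14 were common: Mgl2, Flt1, Myc, Mrc1, Ccl24 and Irf4, and SE against SA was called for 13 of the 26. Mrc1, the mannose receptor, rose 1.2-fold (edgeR adjusted p = 0.00546), and Flt1, a VEGF receptor, by 0.32 on the log2 scale (adjusted p = 0.00157); with the mutants as 1 group their adjusted p were 0.0601 and 0.0586. Myc was at 36.6, 37.1 and 32.5 CPM in WT, 48.3, 37.7 and 44.1 in SA, with 55.6, 49.5 and 49.9 in SE (1.34-fold, adjusted p = 0.00449; 0.0707 without WT3). SA2 was only just above WT. The calls of the eosinophil chemokine gene Ccl24 (2.04-fold, all libraries under 3 CPM) and of Irf4, a transcription factor of alternative activation (1.18-fold), ended without WT3 (adjusted p of 0.121 and 0.171), WT2, SE2 and further libraries. Ccl24 was not called in SA alone (1.8-fold, edgeR adjusted p = 0.119). Irf4 was called in neither mutant alone (edgeR adjusted p of 0.0515 in SA and 0.0731 in SE).

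SE and SA differed for all 8 other higher members. Fn1, given with the matrix genes, rose in both mutants without overlap. For the rest the average was carried mainly by SE. Arg1, which encodes arginase-1, was at 46.7, 41.6 and 48.4 CPM in WT, 49.9, 49.1 and 42 in SA, with 128, 118 and 118 in SE. SA overlapped WT and SE alone was high, yet the average was called (1.66-fold, edgeR adjusted p = 9.02e-06; 0.623 with the mutants as 1 group). Chil3, the chitinase-like protein Ym1, was at 27, 28.6 and 35.1 CPM in WT, 16.4, 22.3 and 19.6 in SA, with 107, 126 and 134 in SE. It lay below WT in SA (adjusted p = 0.00429) and 4.04-fold above it in SE (adjusted p = 3.17e-08), so the 1.61-fold average describes neither mutant. Of 17 tested IL-4 receptor and JAK-STAT6 genes, 3 were higher and 0 lower in the average (17.6%, against 3.11% of all tested genes). They were Stat6 and the feedback inhibitor genes Cish (1.68-fold) and Socs1 (1.28-fold, with edgeR adjusted p = 0.0854 without WT3). None was common; Cish was at 8.27, 7.4 and 9.77 CPM in WT, 8.11, 8.1 and 9.66 in SA, with 22.7, 21.3 and 27.5 in SE (adjusted p = 0.638 with the mutants as 1 group).

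Collagen and matrix genes formed the other large group without a common member. Of 24 tested, 13 were higher and 1 lower (Mmp8, a collagenase of myeloid cells, 1.43-fold), the median log2 change was 1.06, and SE against SA was called for 20. The share called in the average was 58.3%, against 3.11% of all tested genes. With the mutants as 1 group only Fn1 of the 13 stayed called (edgeR adjusted p from 0.113 to 0.589 for the other 12), and Mmp8 stayed called too. Col1a1, a chain of type I collagen, was at 1.2, 1.29 and 1.68 CPM in WT, 18.5, 20.3 and 18.9 in SA, with 4.07, 3.49 and 4.97 in SE. The 3 genotypes did not overlap: SA was 13.8-fold and SE 3.02-fold above WT (edgeR adjusted p = 5.67e-05 for SE). Fn1, fibronectin, was the nearest to a shared rise, with 11.3, 14.5 and 13.4 CPM in WT, 30.6, 35.7 and 40.3 in SA, with 21.7, 26.9 and 27.2 in SE (2.31-fold, adjusted p = 4.67e-06; SE against SA adjusted p = 0.00889). Slc15a2, a peptide transporter outside the list, was at 0.599, 0.47 and 0.419 CPM in WT, 15.8, 20.3 and 17.1 in SA, with 1.62, 2.68 and 1.88 in SE. Beside these, the summed mesothelial and fibroblast markers ran from 2.55 to 3.95 CPM in WT, 34.1 to 38.5 in SA and 5.99 to 9.94 in SE; that list includes Col1a1, Col1a2 and Col3a1, 8 of its 10 markers averaged under 1 CPM, and Krt19, Msln and Wt1 were at 0 counts in all 9 libraries. The part of such cells in the collagen values was not tested.

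Other falls of small p were graded between the mutants. Mamdc2 was at 21.9, 20 and 20.1 CPM in WT, 7.62, 7.64 and 6.42 in SA, with 12.8, 10.1 and 11 in SE (2.28-fold, edgeR adjusted p = 6.28e-07; SE against SA adjusted p = 0.00141). Cd5l, a secreted scavenger protein of tissue macrophages, was at 34.3, 41.6 and 34.8 CPM in WT, 19, 17.6 and 18 in SA, with 23.4, 22.8 and 23.4 in SE (1.79-fold, adjusted p = 2.38e-06; SE against SA adjusted p = 0.0162). Sdc1, the heparan sulfate proteoglycan syndecan-1, was at 108, 114 and 103 CPM in WT, 52.9, 51 and 58.2 in SA, with 85.7, 72.5 and 82.7 in SE (1.64-fold, adjusted p = 3.94e-06). In all of these both mutants were below every WT library, with SA the lowest. With the mutants as 1 group, Sdc1 had an edgeR adjusted p of 0.105, while Mamdc2 and Cd5l stayed called.

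SE was the lower mutant for the iron export gene. Slc40a1, the iron exporter ferroportin, was at 16.1, 17.7 and 19.4 CPM in WT, 10, 14.2 and 12.6 in SA, with 6.72, 7.62 and 7.49 in SE (1.88-fold, edgeR adjusted p = 5.05e-05). C1qa, a chain of the C1q initiator of the classical pathway, was higher in both mutants and most in SA, at 612, 605 and 597 CPM in WT, 917, 911 and 849 in SA, with 747, 691 and 735 in SE (1.33-fold, adjusted p = 0.000105). With the mutants as 1 group neither gene was called (adjusted p of 0.122 for Slc40a1 and 0.0522 for C1qa).

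Several metabolic lists had calls in only the lower direction. Over all tested genes 1.73% were called lower and 1.39% higher. In lists of 15 to 25 genes, 0 higher calls is near the 1.39% share and gives no direction by itself. The lower calls were 16% of the NRF2 and glutathione list, 12.5% of the LXR list and 13.3% of the iron list. Of 25 tested NRF2 and glutathione genes 4 were lower and 0 higher (5 had a positive change; median log2 change -0.10). Gstm1, a glutathione transferase, was at 103, 127 and 113 CPM in WT, 73.4, 74.9 and 82.1 in SA, with 94.2, 90 and 92.3 in SE (1.36-fold, edgeR adjusted p = 0.000464). Me1, malic enzyme (1.43-fold), and Taldo1, transaldolase of the pentose phosphate pathway (1.18-fold), were common, and both calls ended without WT3 (adjusted p of 0.0657 and 0.0547). Me1 was not called in SA alone (1.31-fold, edgeR adjusted p = 0.0591) and fell 1.55-fold in SE. Of 24 tested LXR target and lipid handling genes 3 were lower and 0 higher, with a median log2 change of -0.03: Pltp, the phospholipid transfer protein (1.27-fold, adjusted p = 0.00201), and Mylip, the ligase that degrades the LDL receptor (1.27-fold, adjusted p = 0.00437), were common, and the cholesterol exporter gene Abca1 (1.33-fold, adjusted p = 0.00266) fell further in SE. Pltp and Abca1 lost their calls with the mutants as 1 group (0.0822 and 0.125). Pltp was not called in SE alone (1.18-fold, edgeR adjusted p = 0.0513), nor Abca1 in SA alone (1.21-fold, adjusted p = 0.0952). Of 15 tested iron genes 2 were lower, Slc40a1 and Slc11a1, a phagosomal metal transporter (1.18-fold, adjusted p = 0.0251; 1.19-fold in SA and 1.17-fold in SE); the call of Slc11a1 ended without WT3 (0.138) and without WT2, SA1, SA2, SE1 or SE2. In SE alone Slc11a1 was not called (edgeR adjusted p = 0.0525).

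The cell cycle lists held calls of opposite sign. Of 30 tested G2/M and mitosis genes 6 were lower and 0 higher (20% called, against 3.11% of all tested genes), and 1 had a positive change. The median log2 change was -0.24 (-0.49 in SA, -0.02 in SE), and 14 differed between the mutants. The common members were Cenpa, the centromeric histone variant (1.23-fold, edgeR adjusted p = 0.00653; 0.0691 without WT3), and Cenpf, a kinetochore protein (1.68-fold; 2.04-fold in SA, and 1.39-fold in SE with adjusted p = 0.184), whose call ended without WT1 or WT3 (0.0729 and 0.0727). Ccnb2, cyclin B2, was at 9.23, 10.1 and 9.91 CPM in WT, 4.94, 4.03 and 2.93 in SA, with 8.09, 6.63 and 7.59 in SE, lowest in SA (SE against SA adjusted p = 0.00127; average with the mutants as 1 group 0.275). Of 30 tested G1/S and replication genes 28 had a positive change, but only Uhrf1 was called (3.33%, near the 3.11% of all tested genes). The median log2 change was 0.21 (0.11 in SA, 0.32 in SE).

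Lists tied to the series title held 1 common gene. Of 17 tested senescence and arrest genes 2 were higher and 0 lower (11.8%, against 3.11% of all tested genes), the median log2 change was -0.08, and neither was common. Igfbp7, a secreted binding protein of that list, was higher in SA (7.73-fold, edgeR adjusted p = 0.000164) and not called in SE (1.4-fold, adjusted p = 0.711), and in the average it lost its call without each of 8 libraries in turn, the exception being SE1 (highest edgeR adjusted p = 0.124). Among SASP genes, which encode proteins that senescent cells secrete, 3 of 19 tested were higher and 0 lower (15.8%), the chemokine genes Ccl3 and Ccl2 among them, with a median log2 change of 0.05. Ccl3 rose in SA (1.46-fold, edgeR adjusted p = 0.00048) and was not called in SE (adjusted p = 0.431). Ccl2 was the only common member, 1.88-fold in SA and 1.6-fold in SE (adjusted p = 0.0979 in SE); its call ended without WT1, WT2, WT3, SA2, SA3 or SE2 (highest 0.172), and that of Ccl3 without WT3 (0.115). No gene was called by edgeR among 24 homologous recombination, 18 p53 target, 26 type I interferon, 23 cholesterol synthesis and 24 unfolded protein response genes. SE against SA was called for 12, 1, 10, 16 and 4 of them in that order, against 10.2% of all tested genes. A missed call in the average therefore does not show that neither mutant moved. At an unadjusted p under 0.05 in the average, 2 homologous recombination genes (1 higher, 1 lower), 4 p53 targets (all lower), 6 interferon genes (5 higher), 8 cholesterol genes (all higher) and 0 unfolded protein response genes passed. The share of all tested genes at that unadjusted threshold is not given, here or for later counts. DESeq2 and limma-voom each called 1 interferon gene and none of the other 4 lists.

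**Figure D5:**
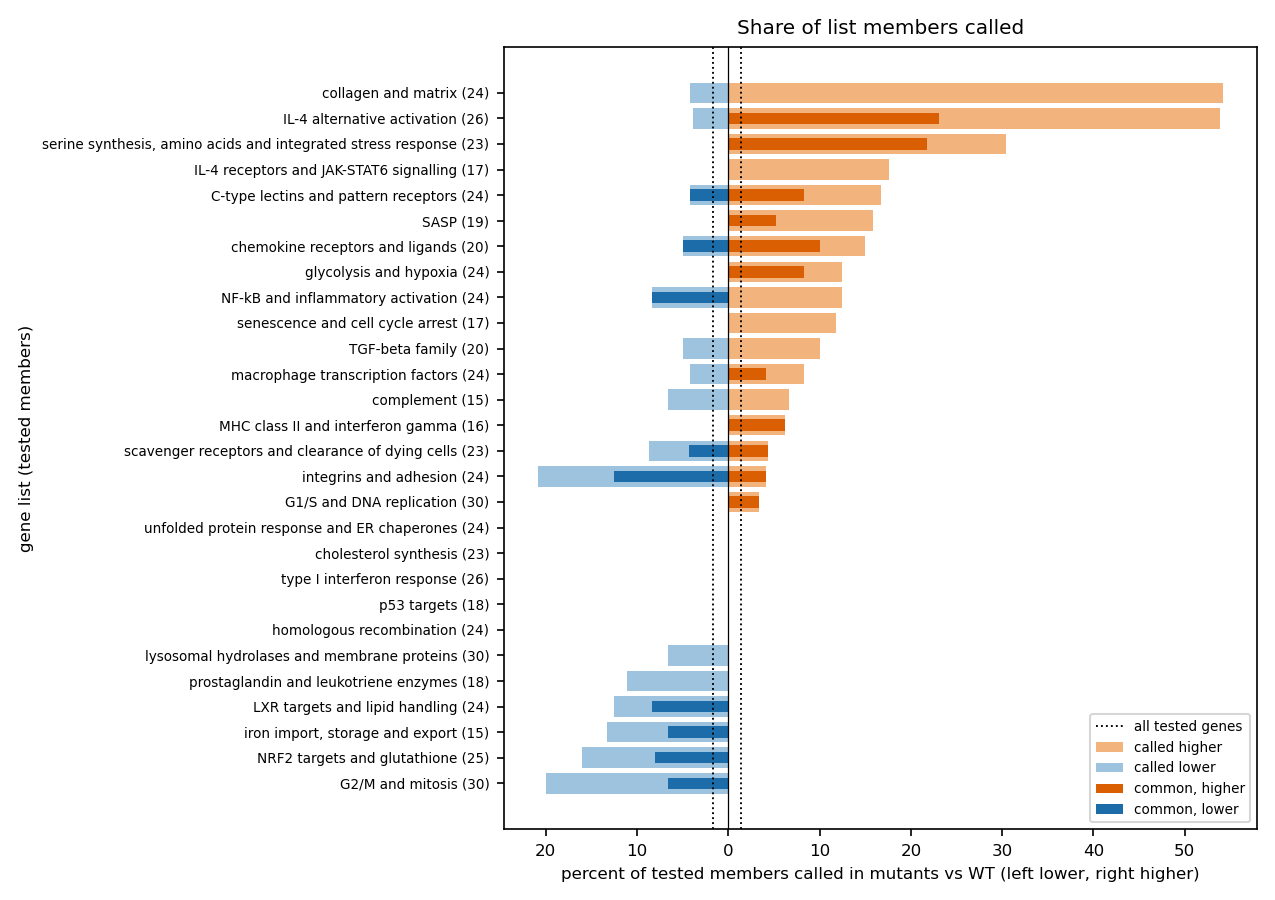
Percent of the tested members of 28 gene lists called in the average of the mutants against WT, higher to the right and lower to the left; dark bars are the common genes among them, dotted lines the shares over all 13501 tested genes (1.39% higher, 1.73% lower), and numbers after names are tested members. Collagen and matrix and IL-4 alternative activation reach farthest right, with dark bars only in the latter.

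Markers placed the cells among macrophages: the core list (Adgre1, Cd68, Csf1r, Itgam, Fcgr1, Lyz2, Mertk and Cd14) summed to 18210 to 23335 CPM in WT, 18379 to 19108 in SA and 18189 to 20930 in SE. Of these 8 genes 0 had a positive change in the average (median log2 change -0.10), and 2 differed between the mutants. Mertk alone was called, lower and common (1.2-fold, edgeR adjusted p = 0.0485). It was not called in SA alone (adjusted p = 0.304), and its call ended without WT3 (0.263) and further libraries. Summed T and NK cell markers were at most 0.0587 CPM and mast cell markers at most 0.604 CPM in any library. Neutrophil markers reached at most 2.79, dendritic cell markers 1.89 and B cell markers 1.21 CPM. Eosinophil markers summed to 21.1 to 28.5 CPM, red cell and platelet markers to 20.4 to 31 CPM, and endothelial and adipocyte markers to 17.2 to 26.4 CPM over the 9 libraries. In that order, these sums came mainly from Siglecf and Ccr3, from Pf4, and from Kdr and Pecam1. Of their other markers, Epx, Prg2 and Plin1 had at most 2 counts in any library, and Hbb-bs and Hba-a2 had 0. Resident large peritoneal macrophage markers summed to 60.8 to 71 CPM in WT, 41 to 41.3 in SA and 44.8 to 47.1 in SE, with no overlap between WT and the mutants. Cd5l and Fcna are members of that list and were its only called members, 5 of its 8 markers averaged under 1 CPM, and Lyve1 was at 0 counts throughout. Of its 4 tested members 2 had a positive change, Icam2 among them, so the lower sums came from Cd5l and Fcna. In bulk RNA fewer cells of a type and less RNA per cell cannot be told apart, and the part of cell makeup in the falls of Cd5l and Fcna was not tested. Monocyte and small peritoneal macrophage markers summed to 99.2 to 105 CPM in WT, 113 to 125 in SA and 104 to 114 in SE. No member of the handling stress (15 tested) or ribosomal protein (26 tested) lists was called by edgeR, DESeq2 or limma-voom, with 2 and 3 genes at an unadjusted p under 0.05.

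Genes near the edited locus were examined by position. Of 83 tested genes other than Stat6 starting within 5 Mb of the start of Stat6, 0 were called by edgeR or limma-voom and 1 by DESeq2, and 14 had an unadjusted p under 0.05 (8 higher, 6 lower). No share of all tested genes at that unadjusted threshold is given to set beside the 14. On the rest of chromosome 10, 26 of 559 (4.65%) were called and 12 were common, Fabp7, Hmga2 and Btbd11 among them. On all other chromosomes 393 of 12858 (3.06%) were called.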

How the data were processed

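Poly(A) RNA of 9 libraries (WT, SA and SE, n = 3 each) was measured. The deposited table holds raw read counts per Ensembl gene; per the submitters' processing notes, the aligner was HISAT2 2.1.0, the counter featureCounts and the build mm10. The version of featureCounts, the annotation release, the strand setting and the handling of multimapping reads: not given in the sources used here. Thus counts of overlapping genes and of close paralogs (Mgl2 and Clec10a, Chil3 and Chil4, the Gstm genes) are uncertain. Of 55401 IDs, 55141 matched GENCODE M21 by ID. All 37 mitochondrial genes had 0 counts. Library totals were 17286617 to 24618608 counts, at which 3 counts equal 0.122 to 0.174 CPM; this covers counting error only.

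Genes kept by filterByExpr (minimum count 10, minimum total 15; 13501 genes) were scaled by TMM and fitted by genotype over all 9 libraries with the robust quasi-likelihood model of edgeR 4.0.16 in R 4.3.3 (6 residual degrees of freedom, biological coefficient of variation 6.75%). The contrast gave SA and SE a weight of 0.5 each, minus WT; SE against SA came from the same fit. Tests were 2-sided, with Benjamini-Hochberg adjustment over all tested genes and a threshold of 0.05. Folds are fitted values; a fall is stated as the fold below WT. SA and SE share the WT libraries, so their separate comparisons with WT are not independent. The fit was also run on simulated counts whose changes were the same in both mutants. That run, whose outcome is not given here, does not cover genes that differ between SA and SE.

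Named genes were Stat6, Cdkn1a, the 12 common genes of largest change in each direction with a mean of at least 5 CPM, the 5 of smallest p in each direction, the 4 called genes with the largest difference between the mutants (predicted genes and pseudogenes left out of each), and up to 2 called members per direction of each list. Further list members appear in counts of called genes, and those given values were chosen after these were seen. The comparison, its members and the 42 lists (28 pathway, 12 marker, 2 quality) were chosen with earlier results of these data known. Alternatives were RLE scaling, library totals, other filters, DESeq2 1.42.0, limma-voom (limma 3.58.1), the mutants as 1 group, a replicate block, and libraries left out. Promoters are RefSeq upstream sequence, matched by symbol for 20595 genes. Some items are not reported here.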

Additional observations from a re-analysis of the deposited data

Results flagged for a closer look

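The mutants' own differences are given for the genes that carried the average contrast but differed most between SE and SA. As SE minus SA on the log2 scale, from the fit of all 9 libraries, Stat6 was at 0.58 (edgeR adjusted p = 5.15e-06), higher in SE. Chil3, the chitinase-like protein Ym1, was at 2.66, also higher in SE. Slc15a2, a peptide transporter, was at -3.12, higher in SA. The collagen genes Col1a2 at -2.33 and Col1a1 at -2.20 were higher in SA too. The genes other than Stat6 were picked for the size of this difference, so their values are given with no test.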

How the results depend on the processing

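The average contrast called 420 genes, 187 higher and 233 lower, with 188 common and 213 that also differed between the mutants. With the mutants as 1 group the counts were 70, 19 and 51, and the log2 change of Stat6 was 0.34 (adjusted p = 0.571); that fit has no SE against SA contrast. Without WT1 and SE2 they were 252, 106, 146, 117 and 135; without WT2 and SE3, 768, 371, 397, 392 and 356. With a mean of at least 5 CPM required, 114 were higher, from fewer genes tested. Leaving out 1 library gave 189 to 506 called, 86 to 245 higher, 103 to 287 lower, 78 to 241 common, 111 to 271 differing between the mutants, and 0.28 to 0.33 for Stat6; the lowest counts called, higher, lower, common and differing were without WT3. DESeq2 gave 479, limma-voom 418, RLE 419, library totals 426 and no filter 603. Except where construction shows it, the cause was not tested. Correlations of deviations from group means were -0.19 to 0.1 for same-number libraries and -0.26 to 0.27 for different-number libraries. With 3 libraries per group, such correlations cannot tell whether replicate numbers paired the samples. A replicate block called 379, of which 360 were among the 420. Of 75 named genes called, 26 were called in every alternative that gave a value and 47 lost the call with the mutants as 1 group; none reversed. Depth limits genes near 3 counts, such as Capn11 in the mutants.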
